A study of Mus musculus with 8 samples.

Results

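The 10 genes described here make, activate, or break down prostaglandins and leukotrienes in the mouse pancreas. They are *Pla2g4a*, *Ptgs1*, *Ptgs2*, *Ptges*, *Ptges2*, *Ptges3*, *Hpgd*, *Alox5*, *Alox5ap*, and *Ltc4s*, chosen by name among the 48709 genes listed for each library, and all 10 were found once. RNA-Seq was performed on whole pancreas of male mice aged 8 weeks, collected 24 hours after modeling, in 4 groups of 2 libraries, which the series describes as biological replicates. WT mice received saline (WT saline) or POA, the fatty acid palmitoleic acid, with ethanol, which together cause severe acute pancreatitis by fatty acid ethyl esters (WT FAEE-SAP). cKO mice, *Pfkfb3* fl/fl with *Pdx1*-Cre, received the same treatments (cKO saline and cKO FAEE-SAP). The *Pdx1* promoter drives Cre in the pancreatic epithelium, and not in the leukocytes, vessels, or fibroblasts of the same tissue. WT mice were purchased, the floxed line was made in C57BL/6J, and a control carrying Cre or the floxed allele alone was not analysed here. By the study's methods, mice with FAEE-SAP also received saline before the injections and the analgesic buprenorphine with the first of them, so treatment here means that whole procedure. The comparisons ask how these genes respond to FAEE-SAP in each genotype and whether the genotypes differ.

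Phospholipases cut arachidonic acid from membranes, and from it cyclooxygenases make prostaglandin H2, which terminal synthases turn into individual prostanoids such as prostaglandin E2. The 5-lipoxygenase pathway takes the same fatty acid to leukotriene A4 and then to leukotriene B4 or to the cysteinyl leukotrienes. In pancreatitis prostaglandins are known as products of both resident and arriving cells, and leukotrienes mainly as products of myeloid cells.

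Depth, worked out from the smallest values, was about 22900000 to 37800000 reads. Values are RPKM, reads scaled to the exonic length of the gene and to the depth of the library, and for 2 kb of exons a single read stood for an RPKM of 0.0132 to 0.0218. RPKM is a share of the library, and without scaling the median gene was 1.24 higher on the log2 scale with FAEE-SAP in WT, 0.57 higher with FAEE-SAP in cKO, and 0.91 lower in cKO than in WT with FAEE-SAP. To set this aside, each library was divided by the median, over genes, of its ratios to the geometric mean of the libraries, and levels below are such scaled RPKM with all 8 libraries on 1 scale. The 10 acinar markers were all detected in each group, with summed levels of 234593 to 273319 in WT saline, 76353 to 80172 in WT FAEE-SAP, 316650 to 325466 in cKO saline, and 189445 to 208613 in cKO FAEE-SAP. *Pfkfb3*, the gene targeted in cKO, was at a scaled RPKM of 1.70 and 1.69 in WT saline, 1.85 and 3.21 in WT FAEE-SAP, 0.880 and 2.10 in cKO saline, and 1.74 and 2.82 in cKO FAEE-SAP. These values overlap between genotypes, and the reason was not tested. Values were for whole genes, so the loss of a pair of exons was not checked, and genotype below means the label. In bulk tissue, fewer cells of a type and less RNA per cell cannot be told apart.

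Promoters are shown for the cyclooxygenase isoenzymes and the inducible prostaglandin E synthase, since *Ptgs2* and *Ptges* had the largest ratios of WT FAEE-SAP to WT saline among the members while *Ptgs1* was lower after scaling, though not as deposited. Each sequence holds 250 bases before and 50 after the RefSeq start on GRCm38.p6, 5′ to 3′ on the gene's strand, and matches to 5 motifs are in capitals.
Ptgs2, chr1:150099781-150100080, plus strand: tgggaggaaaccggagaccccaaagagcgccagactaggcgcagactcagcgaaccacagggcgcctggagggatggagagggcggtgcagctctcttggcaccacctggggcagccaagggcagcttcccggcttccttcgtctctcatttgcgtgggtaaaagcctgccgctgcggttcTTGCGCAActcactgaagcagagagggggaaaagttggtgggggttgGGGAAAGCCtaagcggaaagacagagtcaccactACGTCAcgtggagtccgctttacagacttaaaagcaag
Ptgs1, chr2:36230176-36230475, plus strand: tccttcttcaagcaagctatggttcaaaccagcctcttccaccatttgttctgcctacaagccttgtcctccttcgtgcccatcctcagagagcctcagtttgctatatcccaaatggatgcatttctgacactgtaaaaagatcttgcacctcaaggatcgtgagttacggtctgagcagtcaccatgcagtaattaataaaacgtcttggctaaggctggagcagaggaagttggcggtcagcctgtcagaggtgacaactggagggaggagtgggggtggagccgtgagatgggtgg
Ptges, chr2:30903248-30903547, minus strand: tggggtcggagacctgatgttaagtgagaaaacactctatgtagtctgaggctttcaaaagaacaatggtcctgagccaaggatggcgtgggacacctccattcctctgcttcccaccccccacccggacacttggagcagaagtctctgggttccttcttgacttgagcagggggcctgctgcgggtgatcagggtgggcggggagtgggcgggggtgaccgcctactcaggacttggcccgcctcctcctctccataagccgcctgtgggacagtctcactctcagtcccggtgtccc
The motifs, searched on both strands, were NF-kB as GGNNTTNCC, AP-1 as TGANTCA, the CRE core as TGACGT, C/EBP as TTGCNNAA, and the TATA box as TATAAA. With the start site as position 0, the *Ptgs2* window held a C/EBP match at -69 to -62, an NF-kB match on the opposite strand at -22 to -14, and a CRE core on the opposite strand at 12 to 17, none of which overlap. The *Ptgs1* and *Ptges* windows held none of the 5. Among all 32851 promoter windows of this length, 16% held the NF-kB motif, 7.81% the AP-1 motif, 7.51% the CRE core, 10.8% the C/EBP motif, and 13.6% the TATA motif. Of the 10 members, 9 were found in the RefSeq table, all but *Alox5ap*, in 10 windows. Elsewhere in these windows, *Ltc4s* held 1 NF-kB match at -139 to -131, *Hpgd* a TATA match at 4 to 9, and 1 of the windows of *Pla2g4a* a TATA match at -200 to -195. A match is a string of letters and does not show that a factor binds.

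Averaged over the 8 libraries, the order of scaled RPKM was *Ptges3* (7.63), *Hpgd* (4.51), *Alox5ap* (1.89), *Ltc4s* (1.12), *Ptges2* (0.911), *Ptgs1* (0.796), *Ptges* (0.368), *Pla2g4a* (0.191), *Alox5* (0.170), and *Ptgs2* (0.0666). Each pair of neighbours in this order overlapped in its range over the libraries, so the order of neighbours does not hold beyond their spread. The reads behind these values ran from 1 to 35 per library for *Ptgs2* and from 300 to 1420 for *Ptges3*, so the precision of the lower members was set by few reads. Between libraries the highest level exceeded the lowest 16.8-fold for *Ptgs2*, 8.65-fold for *Ptges*, 7.22-fold for *Hpgd*, 5.34-fold for *Alox5ap*, and 1.66-fold for *Ptges3*.

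**Figure D1:**
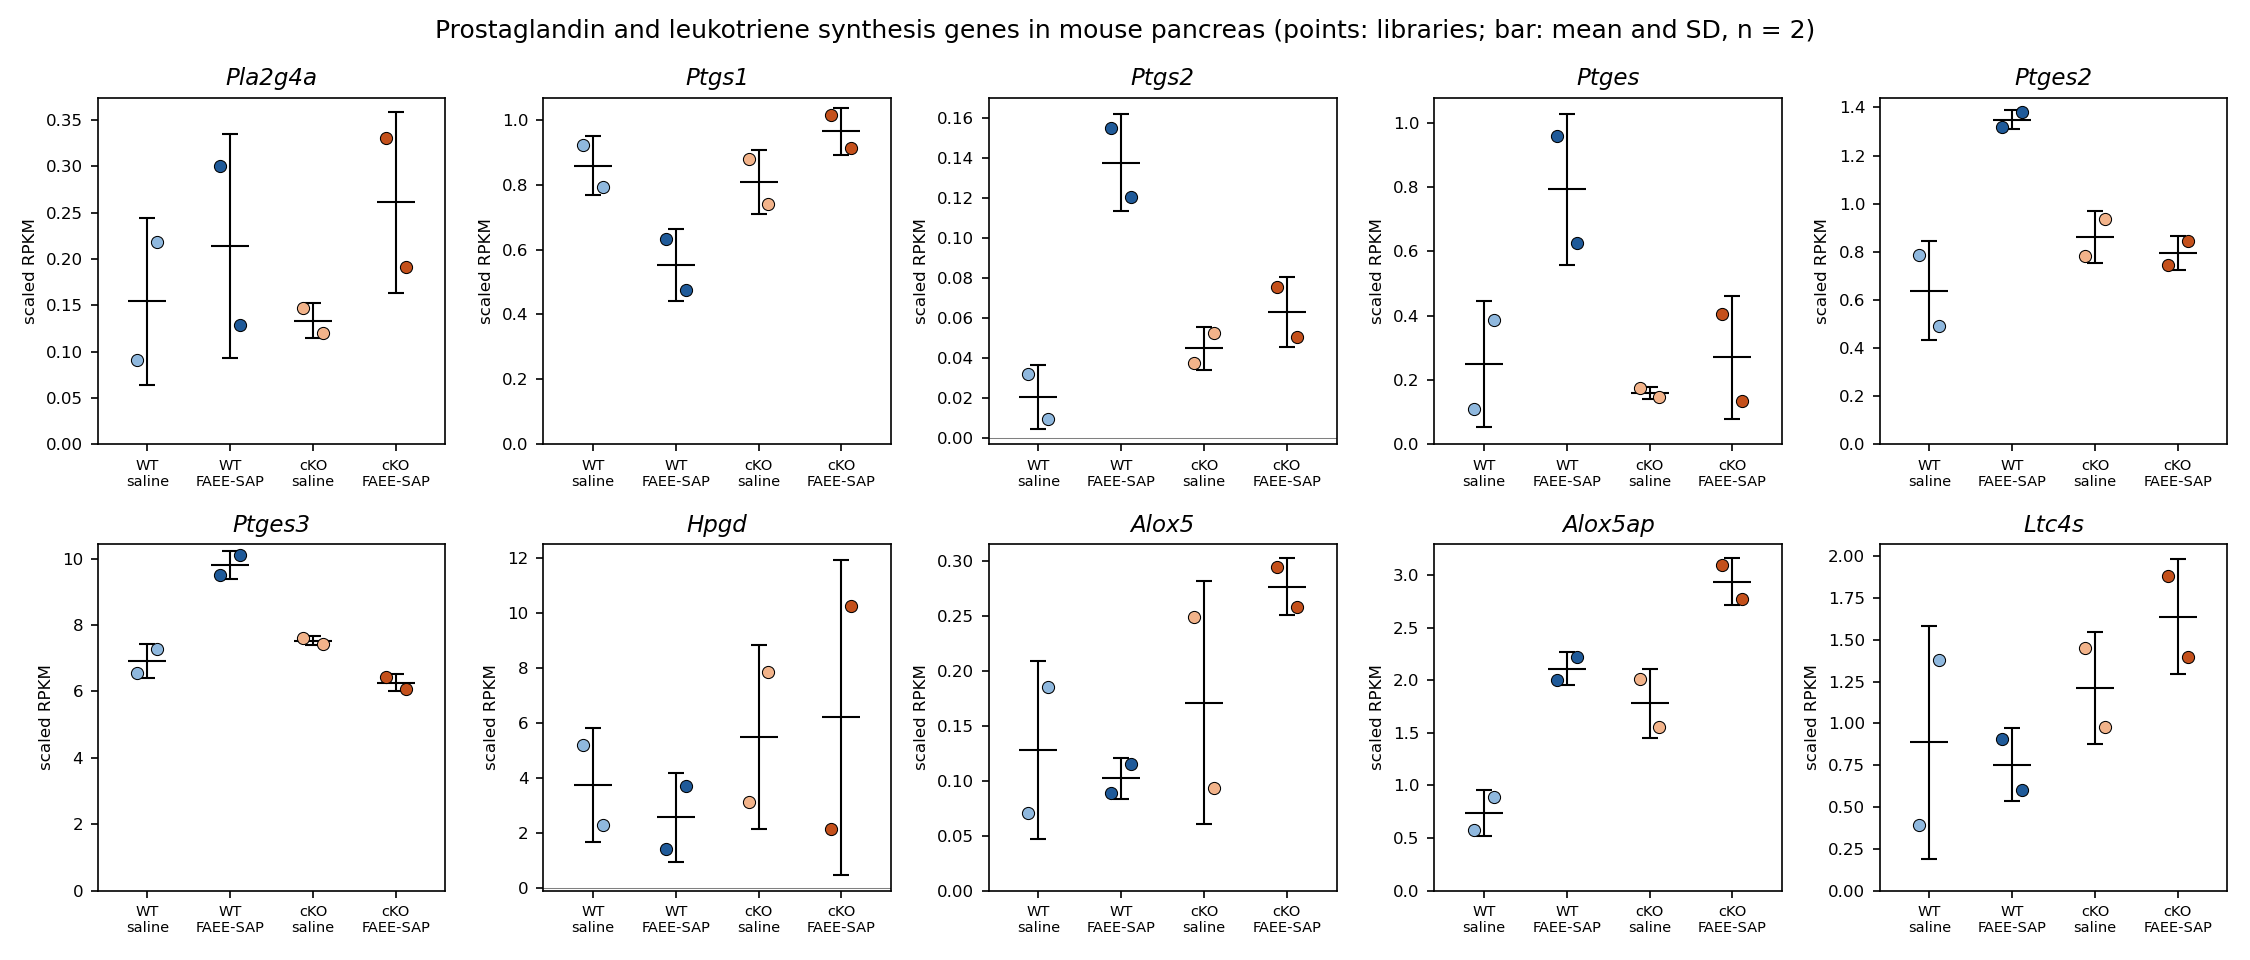
Scaled RPKM (vertical axes, from 0, a scale for each gene) of the 10 genes in the 4 groups, with points for single libraries and bars for the mean and SD (n = 2). *Ptgs2*, *Ptges*, *Ptges2*, and *Ptges3* had both WT FAEE-SAP libraries above every other library, while *Alox5ap* had both WT saline libraries below every other library.

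*Pla2g4a*, cytosolic phospholipase A2, releases the arachidonic acid that both branches use. It lies on chromosome 1 from 149829618 to 149961290 (GENCODE vM21, GRCm38), 138741 bp from *Ptgs2*. Its level was a scaled RPKM of 0.0909 and 0.218 in WT saline, 0.30 and 0.128 in WT FAEE-SAP, 0.147 and 0.120 in cKO saline, and 0.330 and 0.192 in cKO FAEE-SAP. The WT groups overlapped, and both cKO FAEE-SAP libraries were above both cKO saline libraries. The gene rested on 12 to 89 reads per library and did not reach the minimum for testing, an RPKM of 0.5 in 2 libraries. The pooled reads of the cKO groups, 98 against 38, gave a scaled ratio of 1.94 for FAEE-SAP against saline (exact 95% interval 1.32 to 2.89, for counting error only). Fitted without the minimum, that log2 fold change was 0.56 (SE 0.26, adjusted p = 0.701, limma).

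*Ptgs2*, the inducible cyclooxygenase COX-2, was the member with the lowest level and the largest ratio between groups. It lies on chromosome 1 from 150100031 to 150108227. Its scaled RPKM was 0.0317 and 0.00922 in WT saline, 0.155 and 0.121 in WT FAEE-SAP, 0.0373 and 0.0523 in cKO saline, and 0.0756 and 0.0507 in cKO FAEE-SAP. The WT FAEE-SAP libraries were above all others, and the cKO groups overlapped. These levels came from 3 and 1 reads in WT saline, 33 and 35 in WT FAEE-SAP, 4 and 5 in cKO saline, and 10 and 7 in cKO FAEE-SAP. The pooled and scaled reads were 6.86 times as high with FAEE-SAP as with saline in WT (exact 95% interval 2.56 to 25.9) and 1.42 times in cKO (0.598 to 3.61). With FAEE-SAP the ratio of cKO to WT was 0.465 (0.256 to 0.800), and with saline it was 2.25 from 9 reads against 4, with an interval that starts at 0.628 and includes equality. These intervals cover the counting error of pooled reads and leave out the difference between mice. *Ptgs2* did not reach the minimum for testing in any comparison. Fitted without the minimum, its log2 fold change with FAEE-SAP in WT was 1.14 (SE 0.24, adjusted p = 0.0917, limma), and that of cKO against WT with FAEE-SAP was -0.69 (SE 0.26, adjusted p = 0.344, limma). A pseudocount of 0.1 on values of this size shrinks the fold change. On reads recovered from the RPKM, limma with voom weights gave a log2 fold change of 2.63 in WT (SE 0.75, adjusted p = 0.0749), which did not pass the threshold of 0.05.

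*Ptgs1*, the constitutive cyclooxygenase COX-1, lies on chromosome 2 from 36230426 to 36252272. The level was a scaled RPKM of 0.922 and 0.794 in WT saline, 0.632 and 0.475 in WT FAEE-SAP, 0.879 and 0.740 in cKO saline, and 1.02 and 0.913 in cKO FAEE-SAP. With FAEE-SAP its libraries lay below those of saline in WT and above those of saline in cKO. The log2 fold change was -0.58 in WT (SE 0.26, adjusted p = 0.220, by limma and over all genes tested by the method of Benjamini-Hochberg, as below) and 0.25 in cKO (SE 0.20, adjusted p = 0.70), and with the values as deposited that in WT was 0.61. *Ptgs1* was 0.73 higher on the log2 scale in cKO than in WT with FAEE-SAP (SE 0.27, adjusted p = 0.217), a difference that as deposited was -0.14. No comparison of *Ptgs1* passed the threshold. An antisense gene, *Gm43621*, overlaps 3.81% of its exonic bases.

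The 3 prostaglandin E synthases turn prostaglandin H2 into prostaglandin E2. *Ptges* encodes the inducible microsomal enzyme and lies on chromosome 2 from 30889471 to 30929863. It was at a scaled RPKM of 0.111 and 0.387 in WT saline, 0.959 and 0.626 in WT FAEE-SAP, 0.174 and 0.146 in cKO saline, and 0.405 and 0.135 in cKO FAEE-SAP. Both WT FAEE-SAP libraries were above all others, and the replicates lay farther apart in WT saline and cKO FAEE-SAP than in the other groups relative to their means. The log2 fold change with FAEE-SAP in WT was 1.52 (SE 0.48, 95% interval 0.33 to 2.70, adjusted p = 0.112). Without WT saline replicate 2, the saline library nearer to FAEE-SAP, it was 2.21. With FAEE-SAP, *Ptges* was at a log2 difference of -1.45 in cKO against WT (SE 0.47, adjusted p = 0.186). Without cKO FAEE-SAP replicate 1, the cKO library nearer to WT, this was -2.07. Both omissions leave 1 library in a group and take out the library nearer to the other group, which enlarges the difference. The difference of responses to FAEE-SAP, cKO minus WT, was -1.04 (SE 0.73, adjusted p = 0.591). It did not reach the minimum for testing in the other 2 comparisons, and it reached it in these only through the WT FAEE-SAP libraries.

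*Ptges2*, another membrane-associated prostaglandin E synthase, lies on chromosome 2 from 32395896 to 32405772. It was at a scaled RPKM of 0.785 and 0.493 in WT saline, 1.32 and 1.38 in WT FAEE-SAP, 0.784 and 0.937 in cKO saline, and 0.746 and 0.846 in cKO FAEE-SAP. Only the WT FAEE-SAP libraries stood above the range of the saline groups. The log2 fold change with FAEE-SAP was 1.02 in WT (SE 0.28, adjusted p = 0.0864) and -0.07 in cKO (SE 0.20, adjusted p = 0.924), the latter 0.47 as deposited. With all 8 libraries in 1 model the change in WT was 1.0 and passed the threshold (adjusted p = 0.0431). The difference of responses was -1.10 (SE 0.34, adjusted p = 0.284), and with FAEE-SAP the log2 difference of cKO against WT was -0.72 (SE 0.24, adjusted p = 0.188).

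*Ptges3* encodes the cytosolic synthase, also known as p23, a partner of the chaperone HSP90, and was the most abundant member. It lies on chromosome 10 from 128058954 to 128077272. Its scaled RPKM was 6.55 and 7.28 in WT saline, 9.52 and 10.1 in WT FAEE-SAP, 7.62 and 7.43 in cKO saline, and 6.45 and 6.09 in cKO FAEE-SAP. FAEE-SAP libraries lay above saline in WT and below saline in cKO. The log2 fold change was 0.50 in WT (SE 0.18, adjusted p = 0.140) and -0.23 in cKO (SE 0.17, adjusted p = 0.669), the latter 0.38 as deposited. The difference of responses was -0.76 (SE 0.21, unadjusted p = 0.00847, adjusted p = 0.265 from limma), and with FAEE-SAP *Ptges3* was at -0.65 in cKO against WT (SE 0.19, adjusted p = 0.164).

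*Hpgd*, 15-hydroxyprostaglandin dehydrogenase, inactivates prostaglandins and lies on chromosome 8 from 56294585 to 56321043. The level was a scaled RPKM of 5.21 and 2.28 in WT saline, 1.42 and 3.72 in WT FAEE-SAP, 3.14 and 7.88 in cKO saline, and 2.16 and 10.3 in cKO FAEE-SAP. All 4 groups overlapped, and the replicates of cKO FAEE-SAP differed more than any group means. The log2 fold changes ranged from -0.57 with FAEE-SAP in WT (SE 0.56, adjusted p = 0.561) to 1.0 in cKO against WT with FAEE-SAP (SE 0.79, 95% interval -0.95 to 2.95, adjusted p = 0.539). The spread between replicates was too wide to show a change, and with the values as deposited the direction in WT was turned (0.71).

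*Alox5ap* encodes FLAP, the membrane protein that presents arachidonic acid to 5-lipoxygenase, and it was the only member called in any comparison. It lies on chromosome 5 from 149264767 to 149288153. Its scaled RPKM was 0.579 and 0.893 in WT saline, 2.0 and 2.22 in WT FAEE-SAP, 2.01 and 1.55 in cKO saline, and 3.10 and 2.78 in cKO FAEE-SAP. The WT saline libraries were the lowest and the cKO FAEE-SAP libraries the highest, while WT FAEE-SAP and cKO saline overlapped between them. With FAEE-SAP *Alox5ap* rose in WT by 1.45 on the log2 scale (SE 0.27, 95% interval 0.78 to 2.11, adjusted p = 0.0365), from a mean of 0.736 ± 0.221 to 2.11 ± 0.156 (SD, n = 2). It reached the minimum for testing in WT through the FAEE-SAP libraries, since 1 of the WT saline libraries had an RPKM under 0.5. The log2 fold change was between 0.93 and 2.66 in every alternative, but the call was lost without the filter on low values (adjusted p = 0.0766), with voom on recovered reads (adjusted p = 0.0547), and with a pseudocount of 1, where the change was under 2-fold. It was also lost without WT saline replicate 1 (1.18, adjusted p = 0.137), without WT FAEE-SAP replicate 1 (1.54, adjusted p = 0.0939), and without WT FAEE-SAP replicate 2 (1.40, adjusted p = 0.178). In cKO the log2 fold change with FAEE-SAP was 0.72 (SE 0.21, adjusted p = 0.443). The difference of responses was -0.73 (SE 0.34, adjusted p = 0.430), so the responses of the genotypes were not shown to differ. With saline *Alox5ap* was 1.12 higher on the log2 scale in cKO than in WT (SE 0.27, unadjusted p = 0.00983, adjusted p = 0.999 from limma). With FAEE-SAP it was at 0.45 in cKO against WT (SE 0.21, adjusted p = 0.314), or -0.48 as deposited. An antisense gene, *Gm19719*, overlaps 13.3% of its exonic bases, and whether the counting used strand was not given in the sources used here.

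*Alox5*, 5-lipoxygenase itself, lies on chromosome 6 from 116410077 to 116461178 and did not reach the minimum for testing. Levels were a scaled RPKM of 0.0707 and 0.185 in WT saline, 0.0892 and 0.115 in WT FAEE-SAP, 0.249 and 0.0933 in cKO saline, and 0.295 and 0.258 in cKO FAEE-SAP. The cKO FAEE-SAP libraries were above all others, and the remaining groups overlapped. With FAEE-SAP there were 17 and 30 reads in WT against 35 and 32 in cKO, which pooled gave a scaled ratio of 2.65 for cKO against WT (exact 95% interval 1.80 to 3.93, for counting error only). With voom on recovered reads the log2 difference was 1.36 (SE 0.47, adjusted p = 0.195, limma).

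*Ltc4s*, leukotriene C4 synthase, which conjugates leukotriene A4 with glutathione, lies on chromosome 11 from 50236461 to 50238616. The level was a scaled RPKM of 0.395 and 1.38 in WT saline, 0.907 and 0.600 in WT FAEE-SAP, 1.45 and 0.976 in cKO saline, and 1.88 and 1.40 in cKO FAEE-SAP. With FAEE-SAP both cKO libraries were above both WT libraries, and the WT saline libraries spanned the WT FAEE-SAP libraries. The log2 difference of cKO against WT with FAEE-SAP was 1.05 (SE 0.30, 95% interval 0.32 to 1.78, adjusted p = 0.158), and as deposited it was 0.15 (adjusted p = 0.687) with overlapping libraries. That with FAEE-SAP in WT was -0.03 (SE 0.55, adjusted p = 0.980), or 1.14 as deposited. *Ltc4s* was the member whose RPKM did not give whole reads with the GENCODE length, so its 8 to 55 reads per library are approximate, and *Gm26542* on the opposite strand overlaps 26.4% of its exonic bases.

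Across members, 1 of the 7 that reached the minimum was called with FAEE-SAP in WT, *Alox5ap*, higher, where 6.93% of all genes tested were called (at least 2-fold and an adjusted p under 0.05, limma). At an unadjusted p under 0.05 and at least 2-fold, *Ptges* and *Ptges2* joined it, against 12.4% of all genes. In cKO 0 of 6 were called with FAEE-SAP, with a background of 0.0531% (2.97% unadjusted, 0 members). For cKO against WT, 0 of 7 were called with FAEE-SAP (background 1.27%) and 0 of 6 with saline (background 0%). Without adjustment, *Ptges* was lower and *Ltc4s* higher in cKO with FAEE-SAP (background 8.39%), and *Alox5ap* was higher with saline (background 0.677%). For the difference of responses 0 of 7 were called (background 0.0719%), and *Ptges2* passed unadjusted (background 7.02%). Voom in limma on recovered reads called 0 members in each of the 5. An unadjusted p under 0.05 with no minimum of size was reached by 4 of 7 members with FAEE-SAP in WT (27.7% of all genes tested) and by 1 of 6 in cKO (9.42%). It was reached by 5 of 7 for cKO against WT with FAEE-SAP (19.5%), by 1 of 6 with saline (2.15%), and by 3 of 7 for the difference of responses (12.6%). Of the 7 tested in WT, *Ptgs1*, *Ptges3*, and *Hpgd* were at the minimum in both saline libraries, *Ptges2*, *Alox5ap*, and *Ltc4s* in 1, and *Ptges* in none, so the latter 4 entered through WT FAEE-SAP and the counts support no statement on the 10.

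Counted by whether libraries overlapped, 5 of the 10 members were higher and 1 was lower with FAEE-SAP in WT, and 58.8% of all genes at the minimum did not overlap in either direction. In cKO 4 were higher and 1 was lower with FAEE-SAP (43.2% of genes). With FAEE-SAP 4 were higher and 4 lower in cKO than in WT (51.9% of genes), and with saline 3 were higher (28.3% of genes). The 4 lower members were *Ptgs2*, *Ptges*, *Ptges2*, and *Ptges3*, and the 4 higher were *Ptgs1*, *Alox5*, *Alox5ap*, and *Ltc4s*, of which *Ptgs1* and *Alox5ap* had lower means in cKO as deposited. These counts, 6, 5, 8, and 3 of 10 without overlap, were not tested against those shares, and the smallest p of an exact two-sided permutation test for groups of 2 libraries is 0.333. The counts cover all 10 members, also those under the minimum for testing, while the shares cover only genes at it. Comparisons that share a group are not independent.

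**Figure D2:**
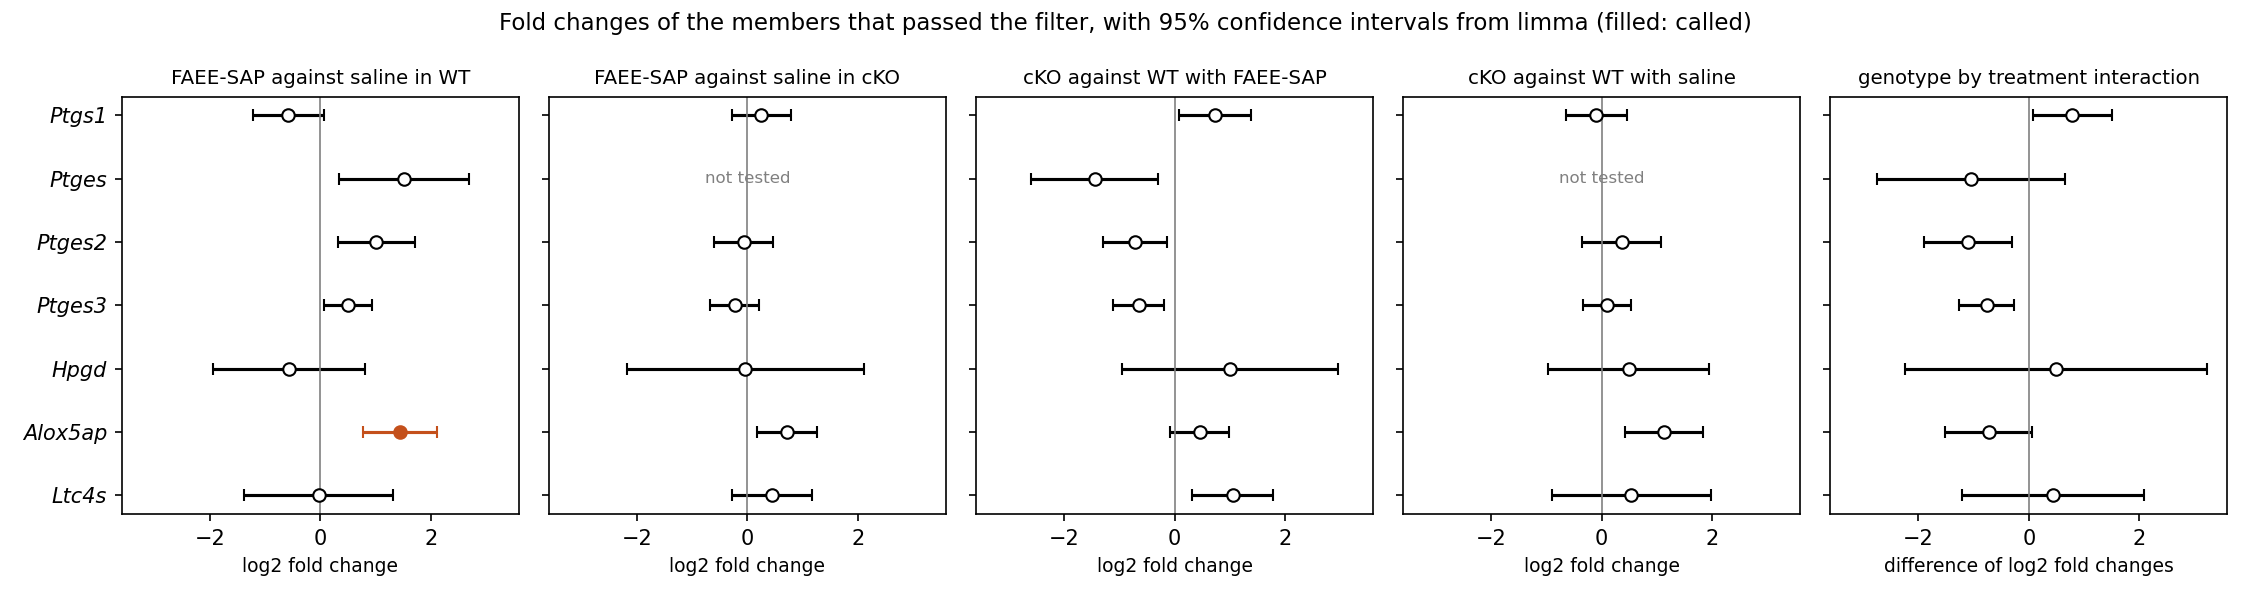
Log2 fold changes (horizontal axes) of the 7 members that reached the minimum for testing, with 95% confidence intervals from limma, for the 4 comparisons and the difference of responses (cKO minus WT). *Alox5ap* with FAEE-SAP in WT (1.45, filled) was the only call, and as deposited the directions of *Ptgs1*, *Ltc4s*, and *Hpgd* in WT, of *Ptges2*, *Ptges3*, and *Hpgd* in cKO, of *Ptgs1* and *Alox5ap* in cKO against WT with FAEE-SAP, of *Ptges3* with saline, and of *Ltc4s* and *Hpgd* in the difference of responses were turned.

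Ratios of RPKM between 2 members within a library do not depend on how libraries are scaled. *Ptgs2* was at 3.44% and 1.16% of the level of *Ptgs1* in WT saline, 24.5% and 25.4% in WT FAEE-SAP, 4.24% and 7.07% in cKO saline, and 7.44% and 5.55% in cKO FAEE-SAP. Both WT FAEE-SAP libraries stood above the other 6, whose ratios rested on 1 to 10 reads of *Ptgs2*. *Alox5ap* was 8.19 and 4.82 times as high as *Alox5* in WT saline, 22.5 and 19.3 times in WT FAEE-SAP, 8.07 and 16.6 times in cKO saline, and 10.5 and 10.8 times in cKO FAEE-SAP. Here too the WT FAEE-SAP libraries were highest, but *Alox5* rested on 6 to 35 reads per library. The next highest ratio, 16.6 in cKO saline, came from 8 reads of *Alox5*. *Ptges* was at 2.13% and 16.9% of the level of *Hpgd* in WT saline, 67.5% and 16.8% in WT FAEE-SAP, 5.52% and 1.85% in cKO saline, and 18.8% and 1.31% in cKO FAEE-SAP, with overlap between groups. *Ptges* was at 14.1% and 78.5% of the level of *Ptges2* in WT saline and at 72.6% and 45.4% in WT FAEE-SAP, and replicates differed by more than groups did. In cKO that ratio was 22.1% and 15.6% with saline and 54.3% and 16% with FAEE-SAP. No test was made on these ratios.

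**Figure D3:**
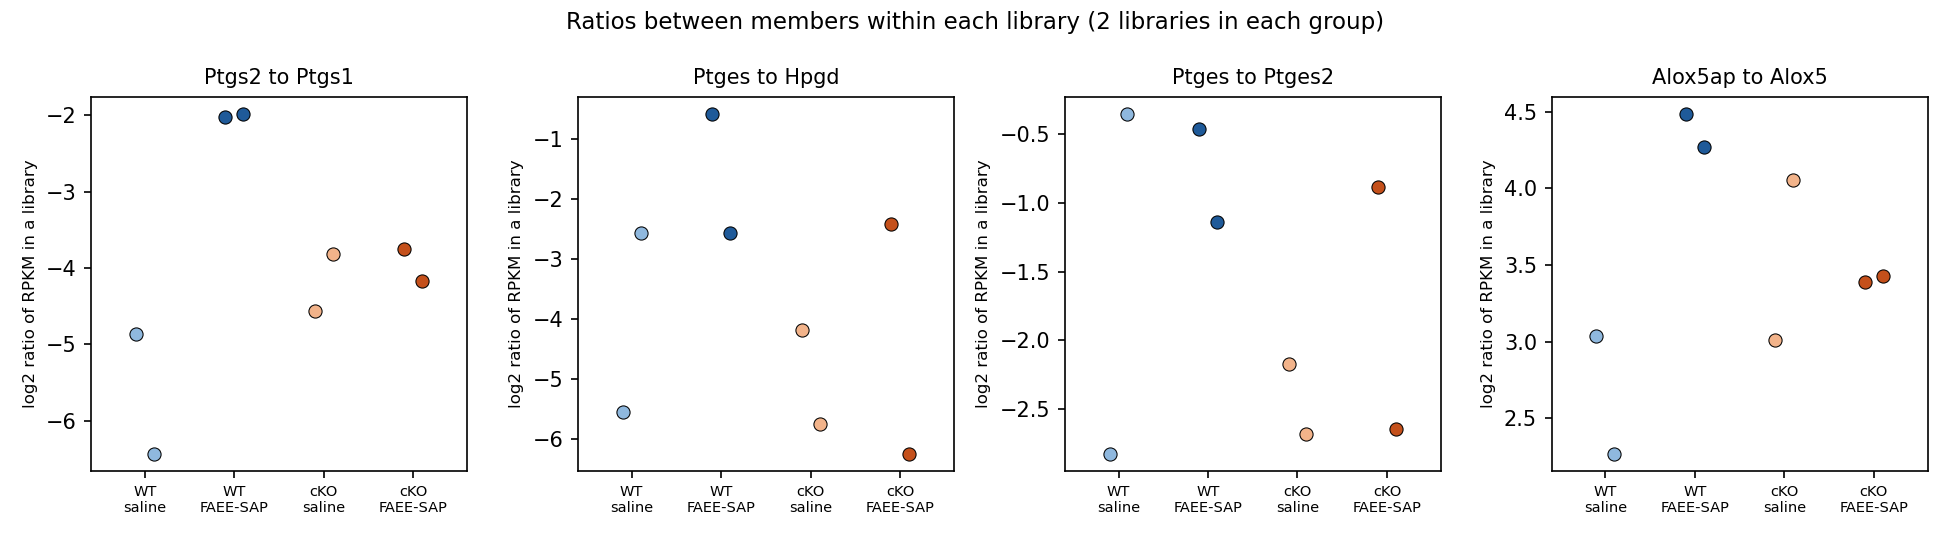
Log2 ratios of RPKM between 2 members within each library (vertical axes), with 2 points for each group. *Ptgs2* to *Ptgs1* was -2.03 and -1.98 in WT FAEE-SAP and between -6.43 and -3.75 in the other 6 libraries.

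The rest of the pathway was read from 69 other genes in 6 lists. These were other phospholipases and arachidonate release, other prostanoid synthases, other lipoxygenases and leukotriene enzymes, breakdown and transport, and the receptors of both families. With FAEE-SAP in WT, 1 of the 31 that reached the minimum was called higher and 3 were called lower, where 6.93% of all genes were called. *Pla2g7*, which hydrolyzes platelet-activating factor, rose, at a scaled RPKM of 1.25 and 1.09 in WT saline and 2.33 and 2.75 in WT FAEE-SAP, a change of 1.06 on the log2 scale (SE 0.22, adjusted p = 0.0458). The call was lost without any 1 of the 4 libraries, with quantile normalization, without the filter or the variance trend, with a pseudocount of 1, and with voom, and the change stayed between 0.76 and 2.32. *Gstm2*, a glutathione transferase of a family with close paralogs that can act as a prostaglandin E synthase, fell by 2.88 on the log2 scale (SE 0.25, adjusted p = 0.00486), from 41.0 and 26.7 to 4.12 and 4.77. *Ggt1*, which takes leukotriene C4 to leukotriene D4 and is abundant in acinar cells, fell by 2.08 (SE 0.19, adjusted p = 0.00576), from 41.9 and 33.1 to 8.26 and 9.29. *Dpep1*, which takes leukotriene D4 to leukotriene E4, fell by 1.26 (SE 0.24, adjusted p = 0.0385), from 6.0 and 4.66 to 2.46 and 1.9, but was at 0.03 as deposited (adjusted p = 0.921), and its call was lost without any 1 of the 4 libraries. As deposited *Ggt1* fell by 0.77, under 2-fold, and *Gstm2* by 1.57. Without WT FAEE-SAP replicate 2 the adjusted p was 0.0521 for *Gstm2* and 0.0529 for *Ggt1*.

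In cKO the log2 fold changes of these 4 genes with FAEE-SAP had the same signs as in WT, except for *Dpep1* as deposited, and none was called. *Gstm2* was at 25.6 and 27.9 in cKO saline and 11.4 and 18.2 in cKO FAEE-SAP, and *Ggt1* at 41.6 and 42.5 in cKO saline and 17.3 and 25.6 in cKO FAEE-SAP. Their responses differed by 1.99 (SE 0.40, adjusted p = 0.160) and 1.08 (SE 0.31, adjusted p = 0.274), neither past the threshold. None of the 28 genes tested in cKO, the 32 tested between genotypes with FAEE-SAP, the 26 tested with saline, and the 33 tested for the difference of responses was called by limma, and 1, 4, 1, and 3 of them passed unadjusted with at least 2-fold, against 2.97%, 8.39%, 0.677%, and 7.02% of all genes.

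**Figure D4:**
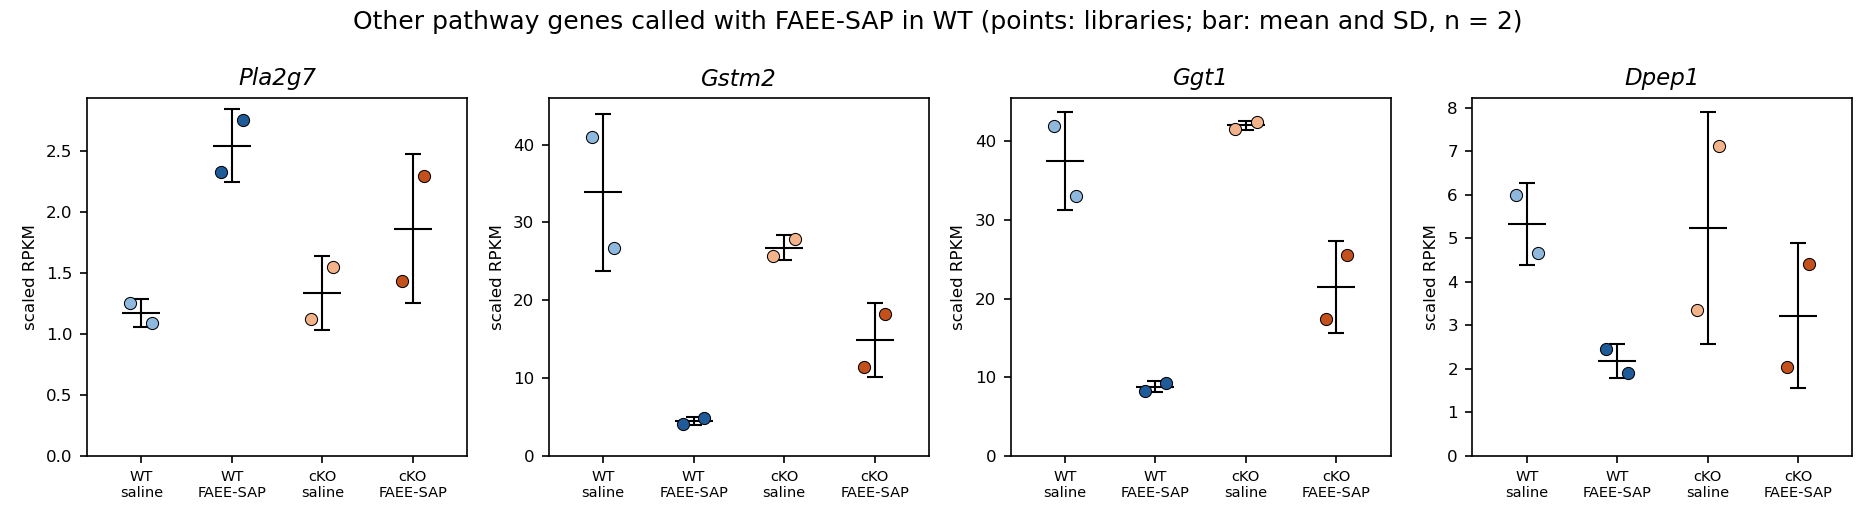
Scaled RPKM (vertical axes, from 0) of the 4 other pathway genes called with FAEE-SAP in WT, with points for single libraries and bars for the mean and SD (n = 2). *Gstm2*, *Ggt1*, and *Dpep1* were lower and *Pla2g7* was higher in both WT FAEE-SAP libraries than in both WT saline libraries, a direction that *Dpep1* did not keep as deposited.

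The 2 genes with the highest level in each list, where not given above, follow. In the list of phospholipases and arachidonate release these were *Mgll*, monoacylglycerol lipase, at 6.35 to 10.9 over the 8 libraries, and *Pla2g12a*, a secreted phospholipase A2, at 2.62 to 7.40. *Pla2g12a* was at a log2 fold change of -0.97 with FAEE-SAP in WT (SE 0.21, adjusted p = 0.0490), just under the 2-fold minimum, and at 0.32 as deposited. *Cbr1*, a carbonyl reductase that acts on prostaglandins, came next to *Gstm2* among the synthases, at 5.28 to 13. *Lta4h*, which makes leukotriene B4, was at 3.93 to 5.42, with log2 fold changes from -0.26 to 0.03 in the 4 comparisons, and from -0.92 to 1.04 as deposited. *Zadh2* (2.96 to 4.77) and *Ptgr2* (0.540 to 1.65), both prostaglandin reductases, led the breakdown list. Of the receptors, *Ptger3*, the EP3 receptor of prostaglandin E2, was at 6.11 and 6.11 in WT saline, 17.5 and 6.49 in WT FAEE-SAP, 6.35 and 4.29 in cKO saline, and 12.1 and 7.38 in cKO FAEE-SAP. *Ptger4*, the EP4 receptor, was at 0.990 and 1.09 in WT saline and 0.564 and 0.347 in WT FAEE-SAP (log2 fold change -1.10, SE 0.29, adjusted p = 0.0772), while as deposited its libraries overlapped and the value was 0.08. *Ltb4r1*, the high-affinity receptor of leukotriene B4, was at 0.104 and 0.0606 in WT saline and 0.294 and 0.487 in WT FAEE-SAP (log2 fold change 1.51, SE 0.35, adjusted p = 0.0590), and it reached the minimum only through WT FAEE-SAP. *Cysltr1*, a receptor of cysteinyl leukotrienes, was at 0.0644 to 0.303.

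Likeness to *Ptgs2*, *Ptges*, and *Alox5ap* was measured over the 8 libraries as the root mean square difference of log2(scaled RPKM + 0.1), each gene set to 0 at its WT saline mean. Nearest to *Ptgs2* were *Urah* (0.12), *Gsr* (0.14), and *Macc1* (0.14), where the median over all genes was 0.65. The pseudocount flattens *Ptgs2*, so these are genes with a change of about that flattened size. Nearest to *Ptges* were *Slc15a3* (0.19), *Cfb* (0.20), and *Rasal1* (0.23), with a median of 0.91. Nearest to *Alox5ap* were *Ctse* (0.24), *Dynlt1a* (0.41), and *Fcer1g* (0.42), with a median of 1.37. *Dynlt1a* has close paralogs, so its reads are uncertain, and *Fcer1g* is the Fc receptor gamma chain of myeloid cells. *Fcer1g* was at 0.665 and 1.93 in WT saline, 4.93 and 3.65 in WT FAEE-SAP, 2.39 and 1.53 in cKO saline, and 4.75 and 3.6 in cKO FAEE-SAP.

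Summed neutrophil markers were higher with FAEE-SAP in both genotypes, while sums of macrophage and of lymphocyte markers overlapped between the WT groups. The part of such cells in the results was not tested. The summed level of 12 neutrophil markers was 1.66 to 2.72 in WT saline, 57.2 to 60.9 in WT FAEE-SAP, 1.67 to 3.96 in cKO saline, and 13.9 to 20.3 in cKO FAEE-SAP, with *Ly6g* at 0 in both saline groups, *Elane* at 0 in both WT groups, and *Mpo* at 0 in WT FAEE-SAP. *Mpo*, myeloperoxidase, went against the sum, at 0.101 and 0.155 in cKO FAEE-SAP. The 7 that reached the minimum with FAEE-SAP in WT did so through the WT FAEE-SAP libraries, none being at it in both WT saline libraries, so their calls are not counted here. The sum of 10 macrophage markers was 79.2 to 97.5 in WT saline, 87.9 to 116 in WT FAEE-SAP, 91.5 to 94.5 in cKO saline, and 118 to 135 in cKO FAEE-SAP, with none at 0. *Lyz2* made up the largest part of it, at 38.1 to 60.4. Of the 10 macrophage markers tested, 2 were called higher with FAEE-SAP in WT (6.93% of all genes), *Cd14* and *Fcgr1*, the latter at the minimum only through FAEE-SAP, and 1, *Cd14*, was called lower in cKO than in WT with FAEE-SAP (1.27% of all genes), where the sum was higher. *Cd14* was at a mean of 13.5 in WT FAEE-SAP and 2.57 in cKO FAEE-SAP. The sum of 8 platelet markers was 1.36 to 2.29, 4.33 to 7.86, 1.86 to 4.38, and 12.2 to 14.8 in the same order of groups. *Pf4*, with a mean of 10.2, and *Ppbp*, with 2.23, made up most of it in cKO FAEE-SAP, while *Gp1ba* was at 0 in every group but WT saline, *Gp9* in both saline groups, and *Gp6* in cKO saline. These markers, other than those at 0, were named after their values were seen. Mast cells and tuft cells can also make leukotrienes. The sum of 9 mast cell markers was 2.42 to 2.74, 1.08 to 1.40, 1.77 to 3.39, and 1.75 to 1.98, with *Tpsab1* at 0 in both saline groups, *Tpsb2* in WT FAEE-SAP, and *Ms4a2* in cKO saline. *Kit*, which is not specific to mast cells, made up most of it in WT, at 1.84 on average with saline and 0.826 with FAEE-SAP, and members went both ways there, with *Cpa3* at 0.269 and 0.0558 and *Hdc* at 0.0402 and 0.228. The sum of 8 tuft cell markers was 0.463 to 0.758, 1.36 to 3.13, 0.473 to 0.972, and 0.627 to 1.64, with *Il25* at 0 in all libraries, *Pou2f3* at 0 in WT saline and cKO FAEE-SAP, *Gnat3* in every group but cKO FAEE-SAP, *Sh2d6* in WT FAEE-SAP, and *Trpm5* in cKO FAEE-SAP. That of 6 adipocyte markers was 33.8 to 60.9, 79.0 to 110, 35.7 to 60.0, and 22.9 to 84.8, with *Lep* at 0 in WT saline, and that of 7 mesothelial markers was 2.64 to 3.56, 1.22 to 1.30, 3.86 to 6.78, and 1.66 to 4.87, with *Krt5* at 0 in every group but WT FAEE-SAP. Ductal markers summed to 44.7 to 48.8 in WT saline, 69.6 to 72.1 in WT FAEE-SAP, 32.4 to 53.4 in cKO saline, and 68.7 to 69.0 in cKO FAEE-SAP, so FAEE-SAP lay above saline in both genotypes. Endothelial markers summed to 14.0 to 17.4, 13.4 to 15.6, 13.9 to 14.0, and 17.7 to 23.5, highest in cKO FAEE-SAP. Fibroblast markers summed to 56.2 to 68.2, 51.7 to 60.8, 60.5 to 62.2, and 60.7 to 70.0, and lymphocyte markers to 10.01 to 19.9, 13.1 to 15.1, 8.73 to 9.87, and 8.21 to 17.2, and no marker of these 4 lists was at 0 in a group. *Dcn*, decorin, made up most of the fibroblast sum, at 38.4 to 51.9, and with FAEE-SAP 5 of the 8 fibroblast markers had a log2 fold change above 0 in WT and 7 of 8 in cKO, with none called by limma. *Kit*, *Cpa3*, *Hdc*, and *Dcn* were also named after their values were seen.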

How the data were processed

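RNA-Seq of whole pancreas was used, with 2 libraries in each of 4 groups assigned by their labels. The study's methods describe a directional kit, paired-end sequencing, filtering with fastp, and mapping to GRCm38.p6 with CLC Genomics Workbench. The authors deposited RPKM for 48709 genes per library, and how it was computed, and whether reads or pairs were counted, is not given in the sources used here. Members were matched by symbol. They and all lists were chosen with earlier results of these data known, and support nothing by their choice.

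Library totals of about 22900000 to 37800000 reads were recovered from GENCODE vM21 exonic lengths, matched by symbol for 46319 genes (95.1%), as the total that makes RPKM times length whole. Of values under 20 reads, 84.1% to 85.6% were whole within 0.1 reads, and the summed reads of matched genes came to 100.3% to 105.7% of these totals, so reads are approximate. For 9 of the 10 members they were whole within 0.05 in all 8 libraries.

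RPKM was scaled by the median of ratios over the libraries of each comparison, and values by library are scaled over all 8, which moves log2 fold changes by 0.03 at most. Genes with a deposited RPKM of at least 0.5 in at least 2 libraries were tested as log2(scaled RPKM + 0.1), a scale that understates changes of low genes, with limma 3.58.1 in R 4.3.3 (variance trend, Benjamini-Hochberg adjustment over all genes tested). The 4 comparisons were fitted on their own libraries and the difference of responses on all 8. A gene was called at an adjusted p under 0.05 and at least 2-fold. Genes named outside the members were the called genes of the pathway lists, the 2 with the highest mean level in each list, defining markers at 0, and the 3 nearest in pattern to 3 members, and any named beyond this rule is marked. The procedure was tested on simulated data. Alternatives were other scalings, filters, pseudocounts, and thresholds, no variance trend, a common model, replicate number as a block, and each library left out. Limma with voom weights on recovered reads (at least 10 in 2 libraries) was added after the data were seen. Figures were drawn with Python 3.11.15 and matplotlib 3.10.9.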

Additional observations from a re-analysis of the deposited data

Results flagged for a closer look

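2 members had libraries that moved one way with FAEE-SAP in WT and the other way in cKO. *Ptgs1* was lower than saline in both WT libraries and higher in both cKO libraries, and its difference of responses, cKO minus WT, was 0.79 on the log2 scale (SE 0.30, adjusted p = 0.366, limma), and between 0.19 and 0.95 in all alternatives. *Ptges3* was higher than saline in both WT libraries and lower in both cKO libraries, with a difference of -0.76 (SE 0.21, adjusted p = 0.265, limma), between -1.42 and -0.68 in all alternatives. Neither difference passed the threshold. The opposite directions rest on scaling, since as deposited *Ptgs1* was at 0.61 in WT and *Ptges3* at 0.38 in cKO, both above 0.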

How the results depend on the processing

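Of the log2 fold changes of members and of the 4 called pathway genes, 549 values under an alternative kept their direction and side of the threshold, 28 lost a call, 16 gained one, and 33 changed direction. The number of members called with FAEE-SAP in WT, 1, became 4 with the values as deposited (*Ptges*, *Ptges2*, *Ptges3*, and *Alox5ap*), 2 with all 8 libraries in 1 model, 3 with an unadjusted p, and 0 without the filter, with a pseudocount of 1, with voom, and with the replicate block, and it was 0 to 2 with a library left out. For cKO against WT with FAEE-SAP, 0 became 3 as deposited (*Ptges*, *Ptges2*, and *Ptges3*, lower) and 2 unadjusted. With saline 0 became 1 unadjusted, and for the difference of responses 0 became 2 as deposited (*Ptges2* and *Ptges3*) and 1 unadjusted. As deposited 7270 rather than 755 genes were called in WT and 4427 rather than 140 between genotypes with FAEE-SAP.

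As deposited, the direction turned for *Ptgs1* (0.61), *Ltc4s* (1.14), *Hpgd* (0.71), and *Dpep1* (0.027) with FAEE-SAP in WT, for *Ptges2* (0.47), *Ptges3* (0.38), and *Hpgd* (0.56) in cKO, for *Ptgs1* (-0.14) and *Alox5ap* (-0.48) in cKO against WT with FAEE-SAP, for *Ptges3* (-0.18) with saline, and for *Ltc4s* (-0.14) and *Hpgd* (-0.15) in the difference of responses. *Ltc4s* in WT was 0.034 without the filter and *Hpgd* in cKO 0.0040 with a pseudocount of 1. With 1 library left out, a lone sample being assumed to vary like the others, directions turned within these ranges, and the cause was not tested. With FAEE-SAP in WT they were -1.19 to 0.14 for *Hpgd* and -0.84 to 0.78 for *Ltc4s*, and in cKO -0.18 to 0.047 for *Ptges2* and -1.06 to 1.05 for *Hpgd*. For cKO against WT they were -0.12 to 2.14 for *Hpgd* with FAEE-SAP, and with saline -0.014 to 0.19 for *Ptges3*, -0.24 to 1.30 for *Ltc4s*, -0.16 to 1.13 for *Hpgd*, and -0.20 to 0.0047 for *Ptgs1*. For the difference of responses they were -0.62 to 1.60 for *Hpgd* and -0.35 to 1.23 for *Ltc4s*.

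Replicate numbers name no shared litter or day, and deviations of same-numbered libraries correlated between -0.52 and 0.40 across genes, so they were not taken as pairs. With the replicate block the log2 fold change of *Alox5ap* in WT was 1.45 (adjusted p = 0.0589, limma), that of *Pla2g7* had an adjusted p of 0.102 and that of *Dpep1* of 0.0561, 442 genes were called in WT, and 568 between genotypes with FAEE-SAP. Few reads limit *Ptgs2*, *Alox5*, and *Pla2g4a*, which could not be tested at the minimum used.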

Other observations

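*Alox15*, the 12/15-lipoxygenase of the pathway lists, was chosen after its values were seen. Its scaled RPKM was 0.138 and 0.568 in WT saline, 0.158 and 0.0257 in WT FAEE-SAP, 2.12 and 1.21 in cKO saline, and 0.0847 and 0.0135 in cKO FAEE-SAP, so both cKO saline libraries were above the other 6. The log2 fold change with FAEE-SAP in cKO was -3.33 (SE 0.40, unadjusted p = 0.000492, adjusted p = 0.169 from limma) and that of cKO against WT with saline was 1.95 (SE 0.55, adjusted p = 0.999), neither past the threshold. *Alox15* reached the minimum for testing only through the cKO saline libraries, where it was high. The sum of mesothelial markers was also highest in a cKO saline library, and its part in *Alox15* was not tested.

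*Hpgds*, the prostaglandin D synthase of hematopoietic cells, also chosen after its values were seen, was at 0.243 and 0.188 in WT saline, 0.192 and 0.180 in WT FAEE-SAP, 0.178 and 0.0668 in cKO saline, and 0.473 and 0.370 in cKO FAEE-SAP. Both cKO FAEE-SAP libraries were above the other 6 after scaling, while as deposited *Hpgds* overlapped between cKO and WT with FAEE-SAP (0.495 and 0.361 against 0.389 and 0.349). *Tbxas1*, thromboxane synthase, was likewise chosen after its values were seen. Both of its cKO FAEE-SAP libraries were above the other 6 on either scale (scaled RPKM 0.263 and 0.270, against 0.0850 to 0.190). Both genes lay under the minimum for testing.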
